A study of Homo sapiens with 4 samples.

Results

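The genes described here are 4 members of the ALDH1 family of aldehyde dehydrogenases (ALDH1A1, ALDH1A2, ALDH1A3 and ALDH1B1) and 4 markers used for gastric cancer stem cells (CD44, PROM1, BMI1 and KLF4). They were chosen by symbol from the deposited gene table, and all 8 had a row among its 57815 rows. The choice was made with part of the readout known: ALDH1A1 and ALDH1A3 had been seen to be higher with HOXB9 knockdown in 1 cell line each. The change with knockdown is therefore given for these genes as a description and without a test.

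The data are 4 RNA-seq libraries of poly(A) RNA from MKN1 and AGS, established human cell lines from gastric carcinomas. The libraries were MKN1 siHOXB9 (labelled HOXB9 knockdown), MKN1 siScramble (labelled WT), AGS siHOXB9 (HOXB9 knockdown) and AGS siScramble (WT). siHOXB9 is a small interfering RNA against the homeobox transcription factor HOXB9 and siScramble a scrambled control, and cells of all 4 libraries were transfected with Lipofectamine 2000. There was 1 library per line and siRNA, the labels state neither the siRNA sequences nor the time after transfection, and the study searched for target genes of HOXB9.

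ALDH1 enzymes oxidise aldehydes. The ALDH1A enzymes convert retinaldehyde to retinoic acid, the ligand of the nuclear retinoic acid receptors, and ALDH1B1 is a mitochondrial relative that also oxidises acetaldehyde. High aldehyde dehydrogenase activity in a fluorescent assay, and the surface proteins CD44 and CD133 (encoded by PROM1), are widely used to isolate cells with tumour-initiating properties from carcinomas, gastric carcinoma included. BMI1 is a subunit of the Polycomb repressive complex PRC1, and KLF4 is a zinc finger transcription factor of differentiating gastrointestinal epithelium that is also used to reprogram cells to pluripotency.

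HOXB9 itself, the target of the siRNA, was at 0.218 FPKM in MKN1 siHOXB9 and 1.14 FPKM in MKN1 siScramble, and at 4.44 FPKM in AGS siHOXB9 and 16.4 FPKM in AGS siScramble. FPKM are fragments per kilobase of transcript, scaled to the number of mapped fragments. The knockdown libraries thus held 19.1% of the control level in MKN1 and 27.0% in AGS. The MKN1 percentage rests on few fragments, an estimated 30.5 in MKN1 siScramble and fewer in MKN1 siHOXB9. In AGS about 129 fragments stood behind the siHOXB9 value and 495 behind the siScramble value. On the scale of log2(FPKM + 1) the change was -0.81 in MKN1, short of 2-fold on that scale, and -1.68 in AGS. The strength of the knockdown was therefore not compared between the lines. The estimated depth was 10690000 to 12980000 fragments per library, so that 1 fragment in a transcript of 2 kb corresponded to 0.0443 to 0.0538 FPKM. Of the epithelial markers, KRT8 and KRT18 lay between 654 and 1880 FPKM in every library. EPCAM and KRT19 were at 2.02 to 2.70 FPKM in the MKN1 libraries against 328 to 1001 FPKM in the AGS libraries. CLDN4 was at 54.4 and 36.4 FPKM in MKN1 siHOXB9 and MKN1 siScramble, and at 443 and 372 FPKM in AGS. CDH1 was low in both lines, at 0.285 and 0.0752 FPKM in MKN1 and 3.28 and 1.63 FPKM in AGS, siHOXB9 given first. Of 9 markers of other cell types with a row, 4 reached 1 FPKM in MKN1 (COL1A1, LUM, DCN and CDH5) and 1 in AGS (COL1A1). COL1A1 lay between 15.8 and 43.8 FPKM over the 4 libraries. In MKN1 siHOXB9 and MKN1 siScramble, LUM was at 6.90 and 3.93 FPKM, CDH5 at 0.856 and 1.95 FPKM, and DCN at 0.839 and 1.52 FPKM. CD3E and COL1A2 were listed at 0 in all 4 libraries and PTPRC reached at most 0.0183 FPKM. A value listed at 0 can also be a failed estimate, so those of CD3E and COL1A2 do not show that the transcript was absent. The gastric mucins MUC5AC and MUC6 were at or near 0 in both lines, so the labelled gastric origin was not visible in them, whereas TFF1 was at 14.8 FPKM in AGS siHOXB9 and 26.2 FPKM in AGS siScramble.

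The first gene, ALDH1A1 (ENSG00000165092.12), occupies chromosome 9 from 72900662 to 73080442 (GRCh38, reverse strand), and its main transcript has 13 exons and 2107 bases. It was at 0.180 FPKM in MKN1 siHOXB9 and 0.0470 FPKM in MKN1 siScramble, and at 16.3 FPKM in AGS siHOXB9 and 5.38 FPKM in AGS siScramble. ALDH1A1 was thus close to absent from both MKN1 libraries, and within AGS the knockdown library was the higher one. The ratio in AGS was 3.03, or a change of 1.44 on the scale of log2(FPKM + 1), a scale that understates changes of low genes. That change was at percentile 99.5 of all genes measured in AGS. The AGS values correspond to about 376 fragments with siHOXB9 and 129 with siScramble, and the MKN1 values to about 3.56 fragments and 1.00, so no change could be read in MKN1.

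ALDH1A3 (ENSG00000184254.16) lies on the forward strand of chromosome 15 from 100877714 to 100916626, with a main transcript of 13 exons and 3924 bases. It was at 4.03 FPKM in MKN1 siHOXB9 and 1.28 FPKM in MKN1 siScramble, and at 0.0207 FPKM in AGS siHOXB9 and 0.0545 FPKM in AGS siScramble. The line that held ALDH1A3 was therefore the one that lacked ALDH1A1. The ratio in MKN1 was 3.14 and the log2 change 1.14, at percentile 98.7 of all genes measured in that line. These MKN1 values stand for about 158 fragments with siHOXB9 and 54.3 with siScramble, against 0.946 and 2.59 fragments in the AGS libraries. In the annotation, 1585 exon bases of ALDH1A3 are shared with AC015712.2, a gene on the opposite strand. That gene was not matched to a row by name, and because no strand-keeping step is described in the protocols, its reads and those of ALDH1A3 cannot be told apart.

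The sequences before the transcription starts of these 2 genes are shown because they are the genes among the 8 that differed at least 2-fold between siHOXB9 and siScramble, and HOXB9 is a DNA-binding protein. Each is the 250 bases before the start in RefSeq (GRCh38.p14), written 5′ to 3′ on the strand of the gene, at chr9:72953054-72953303 for ALDH1A1 (reverse strand) and chr15:100879581-100879830 for ALDH1A3 (forward strand). Capitals mark TAAT or TTAT on either strand (ATTA and ATAA on the other), short AT-rich words that HOX homeodomains can bind. Matches may overlap.
ALDH1A1: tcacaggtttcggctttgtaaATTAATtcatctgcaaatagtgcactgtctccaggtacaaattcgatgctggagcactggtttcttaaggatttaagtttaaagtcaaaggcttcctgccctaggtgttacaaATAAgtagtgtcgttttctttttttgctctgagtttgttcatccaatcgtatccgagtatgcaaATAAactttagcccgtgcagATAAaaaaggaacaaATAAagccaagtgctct
ALDH1A3: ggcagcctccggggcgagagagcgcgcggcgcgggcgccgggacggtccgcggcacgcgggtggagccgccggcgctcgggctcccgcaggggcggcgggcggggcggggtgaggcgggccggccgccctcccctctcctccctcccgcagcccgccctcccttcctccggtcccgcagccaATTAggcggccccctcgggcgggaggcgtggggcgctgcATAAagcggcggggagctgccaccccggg
The 2 windows differed in base composition. The ALDH1A1 window had 38.4% G and C and 6 CpG dinucleotides, and the ALDH1A3 window 82.4% and 38, while the median over 35116 RefSeq windows of this kind was 58% and 11 CpG. TAAT occurred at 2 places in the ALDH1A1 window and at 1 in the ALDH1A3 window, and 47.4% of all windows hold it. TTAT occurred at 4 places in the ALDH1A1 window and at 1 in the ALDH1A3 window, and 52.8% of all windows hold it. A CCAAT box stood at position -74 from the start of ALDH1A1 and at -71 from that of ALDH1A3, and 32.0% of all windows hold this word on either strand. The word CCCGCC or its complement GGCGGG, the core of the GC box, occurred at 7 places in the ALDH1A3 window and at 0 in the ALDH1A1 window, against 42.5% of all windows with at least 1. Words this short occur often, and a match describes only the letters of the window. Each of the other 6 genes also had at least 1 window in RefSeq, with 41.6% to 91.6% G and C. The words were not particular to ALDH1A1 and ALDH1A3. ALDH1A2, CD44, PROM1, BMI1 and KLF4 had TAAT or TTAT in at least 1 window, and ALDH1B1 had neither. The second ALDH1A2 window held TTAT at 4 places, as many as that of ALDH1A1. CCAAT also occurred in ALDH1A2, ALDH1B1 and PROM1, and not in CD44, BMI1 and KLF4. CCCGCC or its complement occurred in at least 1 window of each.

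ALDH1B1 (ENSG00000137124.7, chromosome 9 from 38392664 to 38398661, forward strand) was the ALDH1 gene with the highest level in every library. It was at 55.1 FPKM in MKN1 siHOXB9 and 54.6 FPKM in MKN1 siScramble, and at 23.9 FPKM in AGS siHOXB9 and 27.1 FPKM in AGS siScramble. Its main transcript has 2 exons. Both MKN1 libraries were above both AGS libraries, and the siRNA made little difference in either line, with log2 changes of 0.01 in MKN1 and -0.18 in AGS. ALDH1A2 (ENSG00000128918.14), an enzyme known for retinoic acid synthesis in the embryo, lies on chromosome 15 from 57953424 to 58497866 on the reverse strand. It was at 0.0326 FPKM in MKN1 siHOXB9 and listed at 0 in MKN1 siScramble, and it was listed at 0 in AGS siHOXB9 and at 0.0635 FPKM in AGS siScramble. At most about 3.17 fragments stood behind a value, so ALDH1A2 was at the limit of detection in all 4 libraries. A value listed at 0 in a table without counts can also be a failed estimate.

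Summed, the 4 ALDH1 genes came to 59.3 FPKM in MKN1 siHOXB9 and 56.0 FPKM in MKN1 siScramble, and to 40.2 FPKM in AGS siHOXB9 and 32.6 FPKM in AGS siScramble. The make-up of that sum differed more than its size. ALDH1A1 took 40.6% of it in AGS siHOXB9 and 16.5% in AGS siScramble, with most of the rest from ALDH1B1 (59.4% and 83.1%). In MKN1, ALDH1B1 took 92.8% with siHOXB9 and 97.6% with siScramble, and ALDH1A3 took 6.79% and 2.29%.

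**Figure D1:**
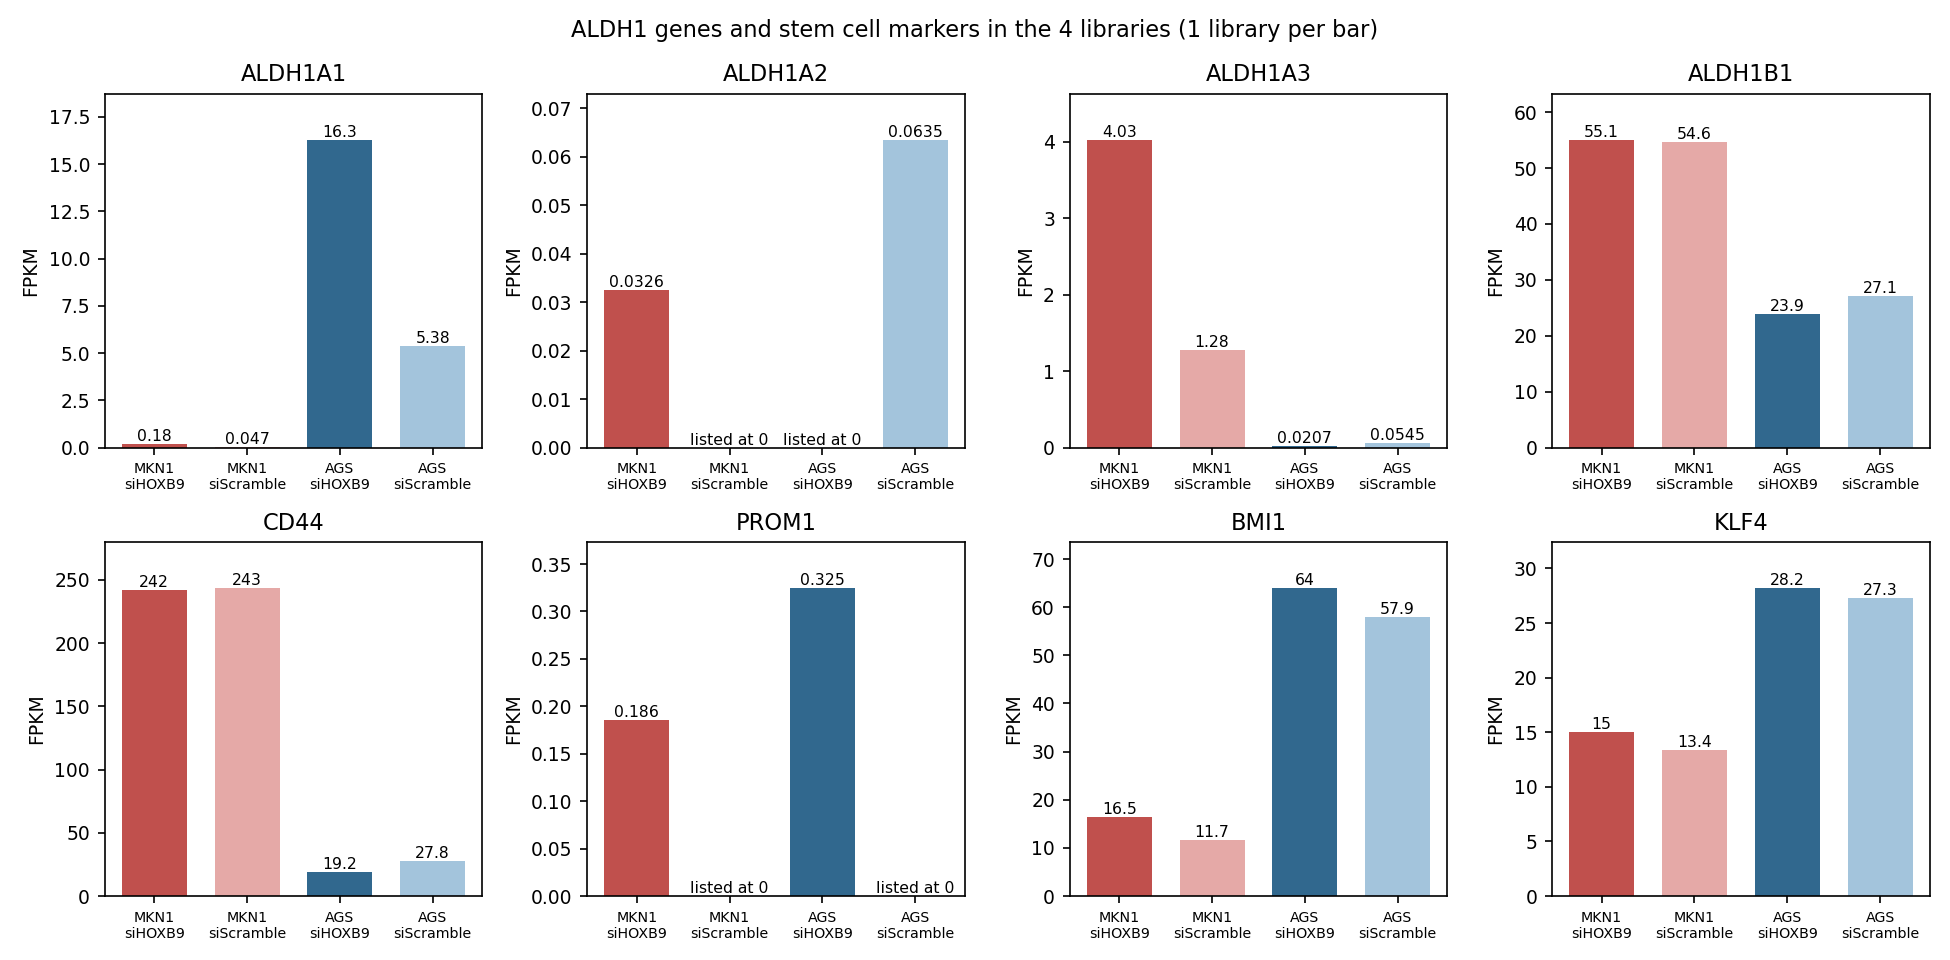
FPKM of the 8 genes in MKN1 siHOXB9, MKN1 siScramble, AGS siHOXB9 and AGS siScramble, 1 library per bar, each panel with its own axis from 0. ALDH1A1 stands out in the AGS libraries (16.3 and 5.38 FPKM), ALDH1A3 in the MKN1 libraries (4.03 and 1.28 FPKM), and CD44 is highest in MKN1 with both siRNAs (242 and 243 FPKM).

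CD44, the receptor for the matrix sugar hyaluronan, had the highest level of the 8 genes in MKN1. CD44 (ENSG00000026508.18) lies on chromosome 11 from 35138870 to 35232402 on the forward strand and has 39 annotated transcripts, which the gene-level table does not separate. It shares 84 exon bases with the antisense gene CD44-AS1, which was not matched to a row by name. It was at 242 FPKM in MKN1 siHOXB9 and 243 FPKM in MKN1 siScramble, and at 19.2 FPKM in AGS siHOXB9 and 27.8 FPKM in AGS siScramble. The MKN1 libraries were nearly equal and far above the AGS libraries. In AGS the knockdown library held 69.1% of the control level, a log2 change of -0.51 at percentile 10.7 of all genes, which did not reach 2-fold, and in MKN1 the change was -0.01.

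PROM1 (ENSG00000007062.11, chromosome 4 from 15963076 to 16084378, reverse strand) was at 0.186 FPKM in MKN1 siHOXB9 and 0.325 FPKM in AGS siHOXB9. It was listed at 0 in the siScramble library of both lines, so no fold is given. About 7.44 fragments stood behind the MKN1 value and 15.2 behind the AGS value. PROM1 was thus a rare transcript in both lines and remained under the minimum of 1 FPKM used for counting. It shares 166 exon bases with FGFBP2, a gene on the same strand listed at 0 in 3 libraries and at 0.0957 FPKM in MKN1 siScramble.

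BMI1 (ENSG00000168283.13) lies on the forward strand of chromosome 10 from 22321211 to 22331484. It was at 16.5 FPKM in MKN1 siHOXB9 and 11.7 FPKM in MKN1 siScramble, and at 64.0 FPKM in AGS siHOXB9 and 57.9 FPKM in AGS siScramble, where it had the highest level of the 8 genes. The log2 change was 0.45 in MKN1, at percentile 87.0 of all genes, and 0.14 in AGS. The value depends on how reads were shared with COMMD3-BMI1, a readthrough gene from the neighbouring COMMD3 into BMI1 (chromosome 10 from 22316388 to 22329542), which shares 1000 exon bases with BMI1. COMMD3-BMI1 was at 16.7 FPKM in MKN1 siHOXB9 and 19.7 FPKM in MKN1 siScramble, and at 56.0 FPKM in AGS siHOXB9 and 54.6 FPKM in AGS siScramble. In MKN1 its log2 change was -0.22, opposite to that of BMI1. The 2 rows summed to 33.2 FPKM in MKN1 siHOXB9 and 31.4 FPKM in MKN1 siScramble, a log2 change of 0.08, and the sum changed by 0.09 in AGS. BMI1 took 49.6% of the sum in MKN1 siHOXB9 and 37.4% in MKN1 siScramble, against 53.3% and 51.5% in AGS siHOXB9 and AGS siScramble. COMMD3 was at 10.3 FPKM in MKN1 siHOXB9, 10.4 FPKM in MKN1 siScramble, 32.4 FPKM in AGS siHOXB9 and 32.6 FPKM in AGS siScramble. In estimated fragments the 2 rows held about 765 in MKN1 siHOXB9 and 693 in MKN1 siScramble, a ratio of 1.19 per depth, against a ratio of 1.40 for the FPKM of BMI1 alone. The size of the BMI1 difference in MKN1 thus depends on how the reads of the locus were shared, and the value is uncertain.

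**Figure D2:**
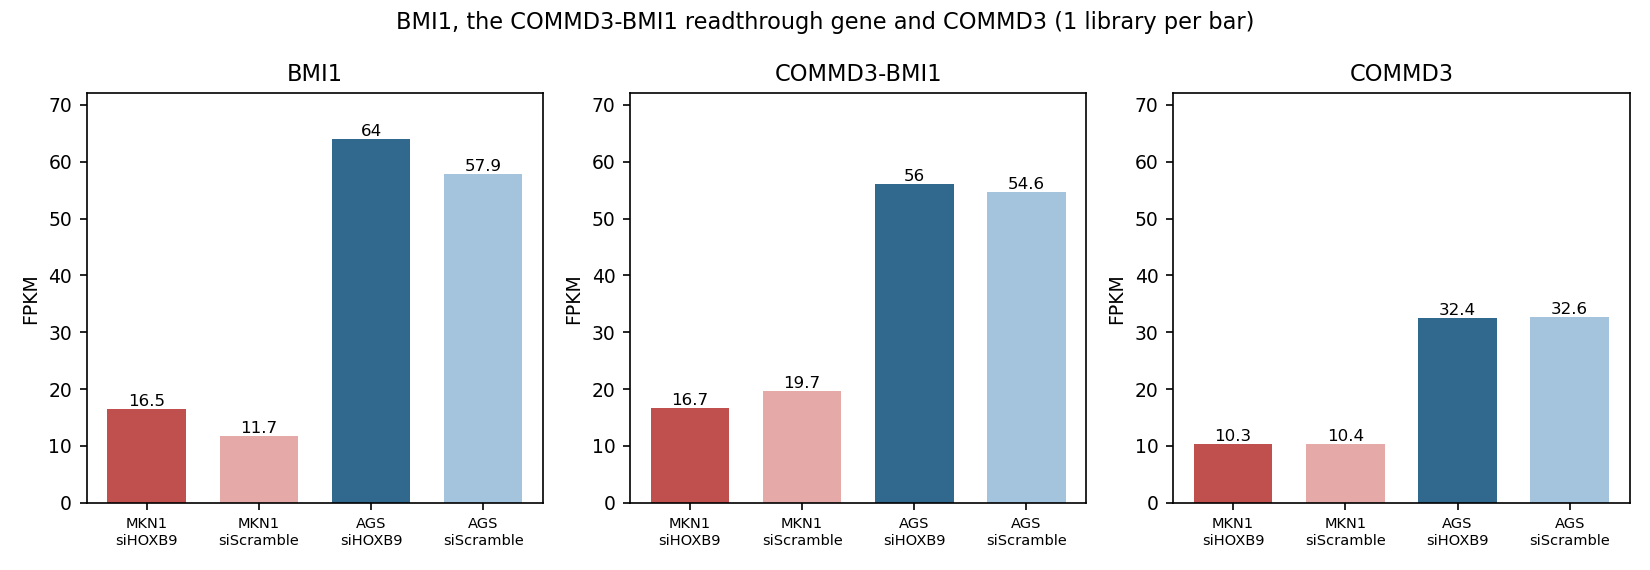
FPKM of BMI1, of the readthrough gene COMMD3-BMI1 and of COMMD3 in the 4 libraries, 1 library per bar, on a common axis. In MKN1, BMI1 is higher with siHOXB9 (16.5 against 11.7 FPKM) where COMMD3-BMI1 is lower (16.7 against 19.7 FPKM), and all 3 rows are higher in AGS.

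KLF4 (ENSG00000136826.14, chromosome 9 from 107484852 to 107490482, reverse strand) was at 15.0 FPKM in MKN1 siHOXB9 and 13.4 FPKM in MKN1 siScramble, and at 28.2 FPKM in AGS siHOXB9 and 27.3 FPKM in AGS siScramble. Its log2 changes were 0.16 in MKN1 and 0.04 in AGS, so its 2 libraries lay close together in each line.

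Of the 8 genes, 4 (ALDH1B1, CD44, BMI1 and KLF4) were measured in both lines and stayed within 2-fold in each. A gene was counted as measured in a line when at least 1 of its 2 libraries reached 1 FPKM, and as different when its log2 change was at least 1 in size. In MKN1, 5 of the 8 genes were measured (ALDH1A3, ALDH1B1, CD44, BMI1 and KLF4) and 1 of them, ALDH1A3, passed this size rule, upward. Among all 13122 genes measured in MKN1, 4.05% passed in either direction and 2.1% upward. In AGS, 5 of the 8 genes were measured (ALDH1A1, ALDH1B1, CD44, BMI1 and KLF4) and 1, ALDH1A1, passed, upward. Among all 13252 genes measured in AGS, 3.89% passed in either direction and 1.68% upward. Since ALDH1A1 and ALDH1A3 were chosen for these changes, nothing is read from the counts. The change was above 0 for 4 of the 5 genes in MKN1 (3 after rescaling, centring or quantile normalization), where 63.1% of all genes were above 0, and for 3 of the 5 in AGS, where 43% were. The median of the 5 was 0.16 in MKN1 and 0.04 in AGS, beside 0.09 and -0.06 for all genes. Under the other 3 scalings it was 0.06 to 0.09 in MKN1 and 0.10 to 0.14 in AGS. The libraries were not scaled to a common total, and among all genes past the size rule the share that was higher with siHOXB9 moved with scaling, being 52.0% in MKN1 as deposited and 39.7% after centring on the median gene, and 43.2% in AGS as deposited and 54.2% after rescaling to a common total. The smallest change past the 2-fold limit among the 8 genes was that of ALDH1A3 in MKN1 (1.14, and 1.04 after centring on the median gene), and the largest within it that of CD44 in AGS (-0.51).

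**Figure D3:**
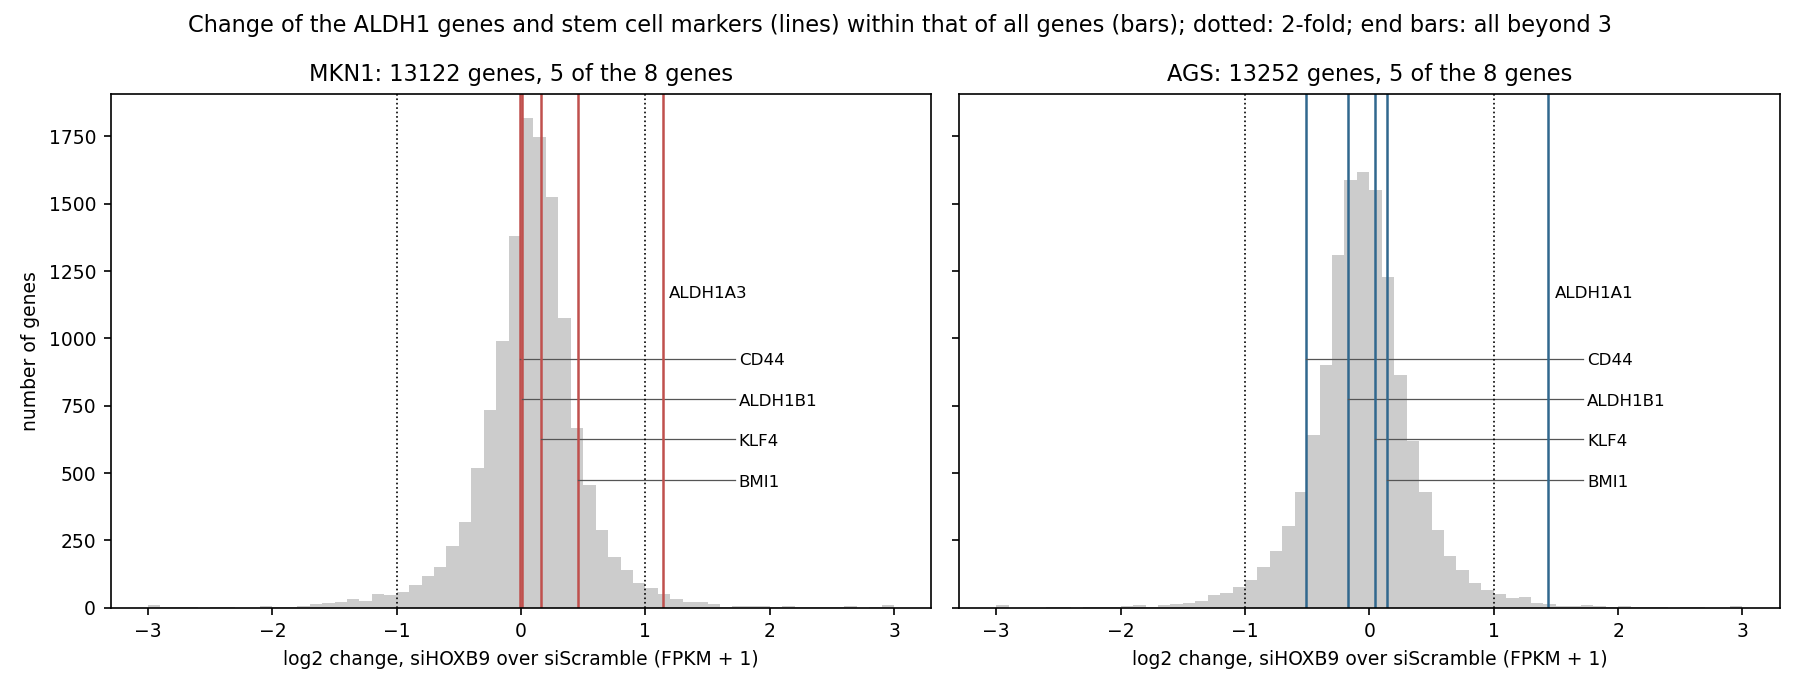
Histogram of the log2 change, siHOXB9 over siScramble, of all genes with at least 1 FPKM in MKN1 (left) and AGS (right), with the 5 measured genes of the 8 as vertical lines and the 2-fold limits dotted. ALDH1A3 in MKN1 (1.14) and ALDH1A1 in AGS (1.44) lie beyond the limit, and the other lines lie inside it.

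ALDH1A1 and ALDH1A3 each exceeded the limit in the line that expressed the gene. In the other line each gene was so low that the added 1 FPKM holds its log2 change near 0, so the changes in MKN1 and AGS were not compared.

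The level in each line was not used to choose CD44, BMI1, KLF4 and ALDH1B1, and was tested as the difference MKN1 minus AGS over both siRNAs, with limma on log2(FPKM + 1) across all genes. This test compares 2 cell lines by 2 libraries each. Its error combines the disagreement between the siRNA pairs, with 1 residual degree of freedom, and a variance trend over all genes, for 7.17 degrees of freedom in total. Of these 4 genes, which were above 1 FPKM in every library, CD44 and ALDH1B1 were called higher in MKN1 and BMI1 lower, at an adjusted p under 0.05 and a size of at least 2-fold. The lines differ widely: among all 13758 genes tested, 37.1% were called, 16.2% as higher and 20.9% as lower in MKN1. CD44 averaged 243 FPKM in MKN1 and 23.5 FPKM in AGS, a log2 difference of 3.34 (SE 0.190, limma adjusted p = 9.69e-06). BMI1 averaged 14.1 FPKM in MKN1 and 60.9 FPKM in AGS, a difference of -2.05 (SE 0.186, limma adjusted p = 9.31e-05). Both differences were larger in size than the change of the same gene with the siRNA in either line.

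ALDH1B1 averaged 54.9 FPKM in MKN1 and 25.5 FPKM in AGS, a log2 difference of 1.08 (SE 0.176, limma adjusted p = 0.00160), just past the 2-fold limit. It was 1.17 between the siHOXB9 libraries and 0.99 between the siScramble libraries. Without the AGS siHOXB9 library it was 0.99 and no longer past that limit. KLF4 averaged 14.2 FPKM in MKN1 and 27.8 FPKM in AGS. Its difference of -0.92 (SE 0.185, limma adjusted p = 0.00425) passed the p threshold and not the 2-fold limit. It reached that limit only without the MKN1 siHOXB9 library (-1.001). With no filter it did not pass the p threshold (limma adjusted p = 0.0511). For ALDH1A1 and ALDH1A3 the difference is given as a description. They were chosen by their values, and each reached 1 FPKM in only 1 line, so that they entered the fit only through the line where they were high. ALDH1A1 differed by -3.87 between the siHOXB9 libraries and -2.61 between the siScramble libraries, and ALDH1A3 by 2.30 and 1.11. ALDH1A2 and PROM1 were too low to test.

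**Figure D4:**
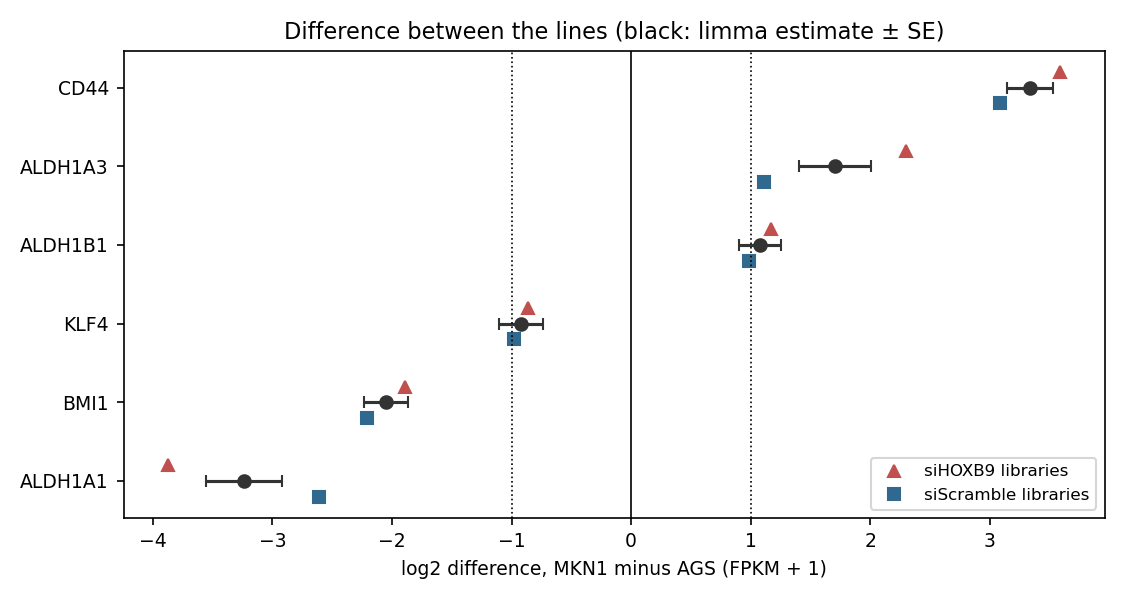
Difference in log2(FPKM + 1), MKN1 minus AGS, of 6 of the 8 genes, of which ALDH1A1 and ALDH1A3 are shown as a description. Black points are limma estimates with their SE over both siRNAs, red triangles the siHOXB9 libraries and blue squares the siScramble libraries. CD44 (3.34), ALDH1A3 (1.71) and ALDH1B1 (1.08) lie right of the 2-fold limit, and BMI1 (-2.05) and ALDH1A1 (-3.24) left of it.

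The order of the levels in FPKM, which are per length and so comparable between genes, differed between the lines more than between siRNAs. In both MKN1 libraries CD44 was highest and ALDH1B1 next, followed by BMI1 and KLF4, which changed places between the 2 libraries (16.5 and 15.0 FPKM with siHOXB9, 11.7 and 13.4 FPKM with siScramble), and then ALDH1A3. In both AGS libraries BMI1 was highest. CD44, KLF4 and ALDH1B1 lay between 27.1 and 27.8 FPKM in AGS siScramble and so were nearly equal there, whereas in AGS siHOXB9 they ranged from 19.2 FPKM for CD44 to 28.2 FPKM for KLF4, with ALDH1A1 next at 16.3 FPKM. Among genes at 1 FPKM or more, CD44 stood at percentile 95.5 in MKN1 siHOXB9 and 95.8 in MKN1 siScramble, and ALDH1A1 at percentile 53.5 in AGS siHOXB9 and 26.0 in AGS siScramble.

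The genes with the most similar pattern over the 4 libraries were found by the distance between centred log2 values, among 10976 genes. The 4 libraries come from 2 lines, so a difference between the lines enters every distance. The change with siHOXB9 enters it too, so a similar change in the nearest genes is built into the search and is not a result. Nearest to ALDH1A1 was SCEL (distance 0.14), at 15.4 FPKM in AGS siHOXB9 and 5.04 FPKM in AGS siScramble and listed at 0 in MKN1, followed by RP13-46H24.1 and IFIT1. IFIT1 was at 36.8 FPKM in AGS siHOXB9 and 14.6 FPKM in AGS siScramble. Nearest to ALDH1A3 was ITGA5 (distance 0.13), at 150 FPKM in MKN1 siHOXB9 and 72.5 FPKM in MKN1 siScramble, followed by TCF4 and SEMA7A. By the search itself, all 3 had a log2 change close to that of ALDH1A3 in MKN1 (1.04 to 1.12). ITGA5 was also at 28.0 FPKM in AGS siHOXB9 and 31.5 FPKM in AGS siScramble, where ALDH1A3 was at 0.0207 and 0.0545 FPKM. The added 1 FPKM makes the line difference of ALDH1A3 smaller on this scale, so a near gene need not share its levels. MPP6, PRRX2 and RASA3 were nearest to CD44, KIF13B, GSTT1 and PAK1 to BMI1, USE1, GNL3L and PTPMT1 to ALDH1B1, and SERPINB6, CSNK1G3 and CTD-2031P19.4 to KLF4.

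Genes around the ALDH1 enzymes were described as lists, to be read beside the median change of all genes (0.09 in MKN1 and -0.06 in AGS), the share of all genes above 0 (63.1% in MKN1 and 43% in AGS) and the shares past the size rule given above. The medians of all lists moved with scaling. Each list median given is as deposited, with its range after rescaling to a common total, centring and quantile normalization. Under these scalings the median of all genes was at most 0.03 in either line. CDKN2A and CDKN2B are given per gene and as deposited only. Of 15 other aldehyde dehydrogenases, 12 were measured in MKN1 and 11 in AGS, and 0 passed the size rule in either line. Their median change was 0.24 in MKN1 (0.13 to 0.17 under other scalings), with 9 of 12 above 0 (7 or 8), and 0.01 in AGS (0.07 to 0.11), with 7 of 11 above 0 (7 or 8). ALDH3A1, a dehydrogenase of epithelial surfaces, had the largest change in both lines and differed in sign. It was at 8.44 FPKM in MKN1 siHOXB9 and 4.72 FPKM in MKN1 siScramble (log2 0.72), and at 54.4 FPKM in AGS siHOXB9 and 93.1 FPKM in AGS siScramble (log2 -0.76). ALDH2, the mitochondrial enzyme that clears acetaldehyde, was at 52.3 FPKM in MKN1 siHOXB9 and 42.2 FPKM in MKN1 siScramble, and at 185 FPKM in AGS siHOXB9 and 150 FPKM in AGS siScramble. In both lines ALDH2 was thus somewhat higher with siHOXB9, by 0.30 in MKN1 and 0.31 in AGS.

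Of 22 genes of retinoid supply, binding and clearance, 11 were measured in MKN1 and 10 in AGS. The median change was 0.35 in MKN1 (0.24 to 0.27 under other scalings) and 0.13 in AGS (0.17 to 0.21). RDH10, which makes retinaldehyde, the substrate of the ALDH1A enzymes, was the only one past the size rule, in MKN1. It was at 6.09 FPKM in MKN1 siHOXB9 and 2.26 FPKM in MKN1 siScramble (log2 1.12), and at 11.5 FPKM in AGS siHOXB9 and 8.95 FPKM in AGS siScramble (log2 0.33). CYP26B1, which breaks down retinoic acid, came just short of it, at 4.32 FPKM in MKN1 siHOXB9 and 1.68 FPKM in MKN1 siScramble (log2 0.99), and stayed at or below 0.501 FPKM in AGS. CRABP2, a carrier of retinoic acid, was lower with siHOXB9 in both lines, at 9.79 FPKM in MKN1 siHOXB9 and 13.7 FPKM in MKN1 siScramble, and at 260 FPKM in AGS siHOXB9 and 420 FPKM in AGS siScramble. AKR1B10, a retinaldehyde reductase, had log2 changes of 0.75 in MKN1 and 0.82 in AGS at levels of at most 3.79 FPKM.

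Of the retinoid receptors, RARB and RXRG were listed at 0 in every library, and RXRB reached at most 0.0336 FPKM, in MKN1 siScramble. RARA, RARG and RXRA were measured. All 3 were slightly higher with siHOXB9 in MKN1 (0.12 to 0.19, with the median of 0.14 at 0.04 to 0.06 under other scalings). They were slightly lower in AGS (-0.15 to -0.08, with the median of -0.14 at -0.08 to -0.04 under other scalings). In AGS 1 of the 3 changed sign after rescaling to a common total. Of 9 genes known to respond to retinoic acid, 6 of which are also in the supply or receptor list, 6 were measured in MKN1 with 4 above 0 and a median of 0.29 (0.18 to 0.21 under other scalings). In AGS 4 were measured, with 1 above 0 and a median of -0.40 (-0.34 to -0.31). Of these, 0 passed the size rule as deposited and 1 after rescaling to a common total. RARRES1 was at 1.37 FPKM in MKN1 siHOXB9 and 0.310 FPKM in MKN1 siScramble, RARRES3 was at 9.75 FPKM in AGS siHOXB9 and 4.69 FPKM in AGS siScramble, and TGM2 was at 19.4 FPKM in AGS siHOXB9 and 30.8 FPKM in AGS siScramble. The measured genes of this list thus lay on both sides of 0 in each line.

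Of 25 further stem cell markers, 14 were measured in each line and 0 passed the size rule. The median change was 0.17 in MKN1 (0.08 to 0.11 under other scalings), with 11 of 14 above 0 (8 or 9), and -0.11 in AGS (-0.05 to -0.02), with 5 of 14 above 0 under each scaling. LRIG1, a membrane protein of epithelial stem cells that restrains growth factor receptors, was lower with siHOXB9 in both lines. It was at 1.78 FPKM in MKN1 siHOXB9 and 3.68 FPKM in MKN1 siScramble, and at 14.6 FPKM in AGS siHOXB9 and 25.1 FPKM in AGS siScramble. The change on the log2(FPKM + 1) scale was -0.75 in each, which understates the change more at the lower levels of MKN1. SOX9 was at 5.91 FPKM in MKN1 siHOXB9 and 3.64 FPKM in MKN1 siScramble (log2 0.57). In AGS the largest changes after LRIG1 were those of PROCR (log2 -0.38) and ALCAM (log2 -0.30), both lower with siHOXB9. LGR5, the receptor that marks stem cells of the stomach and gut, was at 50.2 FPKM in AGS siHOXB9 and 42.5 FPKM in AGS siScramble (log2 0.24) and at most 0.411 FPKM in MKN1.

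Around CD44, 16 ligands, linkers, sheddases and splicing factors were listed, of which 11 were measured in MKN1 and 13 in AGS, and 0 passed the size rule. The median change was 0.25 in MKN1 (0.14 to 0.18 under other scalings) and 0.07 in AGS (0.13 to 0.17). ADAM17, a protease that sheds surface proteins, was at 10.6 FPKM in MKN1 siHOXB9 and 6.97 FPKM in MKN1 siScramble (log2 0.55), and at 12.5 FPKM in AGS siHOXB9 and 10.04 FPKM in AGS siScramble (log2 0.28). HMMR, another hyaluronan receptor, was lower with siHOXB9 in both lines, by log2 -0.36 in MKN1 and -0.43 in AGS. ESRP1, the splicing factor that favours epithelial variants of CD44, was at 0.150 FPKM in MKN1 siHOXB9, 0.235 FPKM in MKN1 siScramble, 46.7 FPKM in AGS siHOXB9 and 47.7 FPKM in AGS siScramble. The table does not hold levels of the CD44 variants.

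Of 18 other subunits of PRC1, the complex of BMI1, 17 were measured in each line. The median change was 0.29 in MKN1 (0.19 to 0.22 under other scalings), with 13 of 17 above 0 (11), and -0.14 in AGS (-0.09 to -0.05), with 6 of 17 above 0 (8). YAF2 was the only subunit past the size rule, at 30.9 FPKM in MKN1 siHOXB9 and 11.9 FPKM in MKN1 siScramble (log2 1.31), and 21.8 FPKM in AGS siHOXB9 and 15.6 FPKM in AGS siScramble (log2 0.46). RNF2, a catalytic subunit, was at 4.47 FPKM in MKN1 siHOXB9 and 8.52 FPKM in MKN1 siScramble (log2 -0.80), and differed by -0.05 in AGS. RING1, the other catalytic subunit, was listed at or near 0 in all 4 libraries. As said for ALDH1A2, a value listed at 0 can also be a failed estimate. The values of RING1, and those of RXRB above, therefore do not show that the transcript was absent.

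CDKN2A and CDKN2B, cell cycle inhibitors of the INK4 locus that BMI1 is known to repress, were above 0 in both lines. CDKN2A was at 755 FPKM in MKN1 siHOXB9 and 607 FPKM in MKN1 siScramble (log2 0.31), and at 1.67 FPKM in AGS siHOXB9 and 0.237 FPKM in AGS siScramble (log2 1.11). CDKN2B was at 14.0 FPKM in MKN1 siHOXB9 and 7.21 FPKM in MKN1 siScramble (log2 0.87), and at 33.0 FPKM in AGS siHOXB9 and 14.9 FPKM in AGS siScramble (log2 1.09). Both passed the size rule in AGS and neither did in MKN1. The control level of CDKN2A in AGS was under 1 FPKM.

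Of 16 other KLF genes, 11 were measured in MKN1 and 12 in AGS, with a median of 0.13 in MKN1 (0.03 to 0.05 under other scalings) and -0.01 in AGS (0.04 to 0.07, so its sign turned). KLF7 was at 9.30 FPKM in MKN1 siHOXB9 and 4.72 FPKM in MKN1 siScramble (log2 0.85), and KLF3 at 5.71 FPKM in MKN1 siHOXB9 and 2.80 FPKM in MKN1 siScramble (log2 0.82). KLF6 was at 54.0 FPKM in AGS siHOXB9 and 38.8 FPKM in AGS siScramble (log2 0.47). None of the genes of this list passed the size rule.

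**Figure D5:**
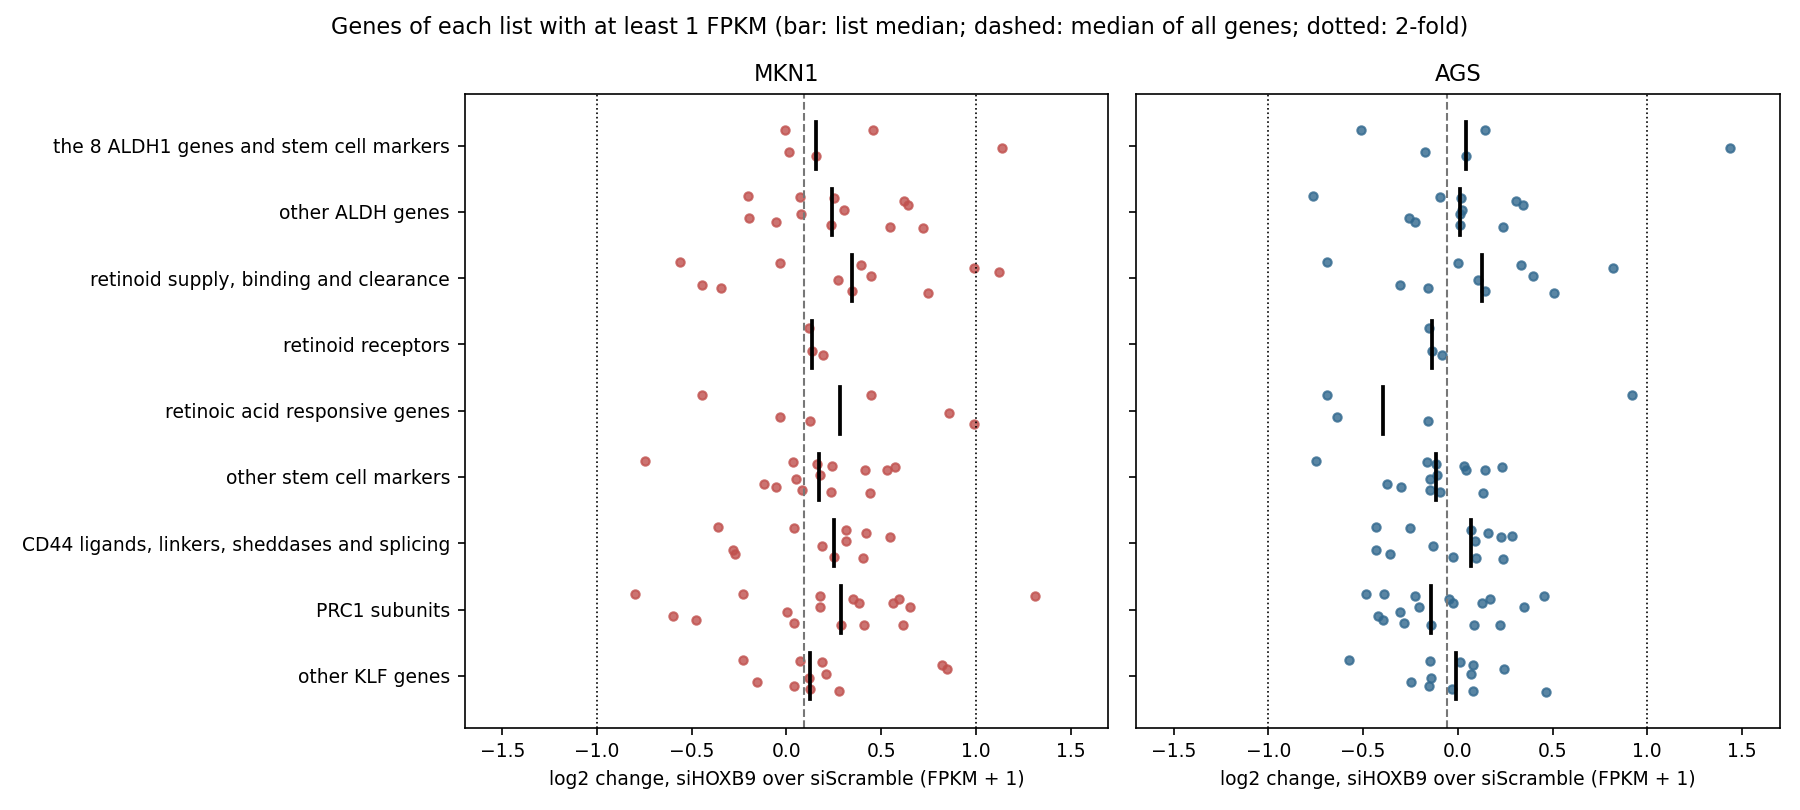
Log2 change, siHOXB9 over siScramble, of each measured gene of the lists in MKN1 (left) and AGS (right). Points are genes, black bars list medians, the dashed line the median of all genes (0.09 in MKN1 and -0.06 in AGS) and dotted lines 2-fold. Most points lie within the 2-fold limits, and the list medians shown are above 0 in MKN1, as is the median of all genes.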

How the data were processed

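Expression values were used as deposited: 1 table with rows named by gene symbol and a column of FPKM per library, computed by the authors. In it 291 symbols were repeated, over 2348 rows. Genes of the lists were read only from symbols with a single row, so a gene said to have no row may have had repeated rows. Per the submitters' processing notes, the builds named were hg38 and GRCh38; for aligner, counting tool and annotation, a name was not given in the sources used here. Per the labels' protocols, RNA was selected on poly-T beads and primed at random, and no step that keeps its strand is described. The table holds no counts. Depth was estimated from low values of genes with a single transcript, with lengths shortened by 260 bases, where 66.7% to 70.2% of values were whole to within 0.05 of a fragment, so fragment numbers are estimates. Nothing in the labels says that the libraries of a line came from separate cultures, so p-values rest on the spread between these libraries, with a variance borrowed across all genes, and that spread may be technical.

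The change within a line was log2((siHOXB9 FPKM + 1)/(siScramble FPKM + 1)) with a size rule of 2-fold and no test. MKN1 minus AGS was fitted with limma 3.58.1 (R 4.3.3), with line, siRNA and an intensity trend in the variance and 1 residual degree of freedom, for genes that reached 1 FPKM in at least 2 libraries. The two-sided p-values were adjusted over all genes tested by the method of Benjamini and Hochberg, and the script was tested on simulated data. Positions and shared exons came from GENCODE 29 and promoter windows from RefSeq. The table used older clone-based names for some genes, so antisense genes were not all matched.

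The genes, the 12 lists (144 genes, 3 without a single row) and the tests were chosen with earlier results of these data known. Genes were named by rule: the 8 genes, rows sharing exons with them, up to 4 genes per list and line with the largest change, and the 3 nearest patterns. ESRP1, RING1, RARB, RXRB, RXRG, COMMD3 and some of the cell type markers were named after their values were seen. The alternatives were another pseudocount, filters, scalings, a 1.5-fold rule, other variance options, no siRNA term and each library left out.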

Additional observations from a re-analysis of the deposited data

Results flagged for a closer look

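ALDH1B1 is given here because its change with siHOXB9 had opposite signs in the lines: the log2 change was 0.0112 in MKN1 (55.1 FPKM with siHOXB9 and 54.6 FPKM with siScramble) and -0.176 in AGS (23.9 FPKM with siHOXB9 and 27.1 FPKM with siScramble). The difference between the lines was not tested, since each value stands on 1 library per group. Both changes were far from 2-fold, and the MKN1 value turned to -0.06, -0.08 and -0.09 after rescaling to a common total, after centring and after quantile normalization, so that the signs then were the same.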

How the results depend on the processing

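ALDH1A1 in AGS passed the size rule under all 7 alternatives and ALDH1A3 in MKN1 under all 6 that kept it. These 2 genes were chosen for these changes, so this describes the processing and gives the changes no support. The alternative filters and the 1.5-fold rule also leave the change itself as it was, so a gene they keep could not fail under them. With a filter of 5 FPKM, 0 of the 8 genes passed in MKN1, because ALDH1A3 stayed below 5 FPKM. The count of all genes past the rule was 1025 in MKN1 and 1037 in AGS with a pseudocount of 0.1 FPKM, 257 and 256 with a filter of 5 FPKM, and 1752 and 1856 with a 1.5-fold rule. Between the lines, 3 of the 8 genes (CD44, ALDH1B1 and BMI1) and 2750 genes in all were called with no filter, and 3 to 5 of the 8 and 3517 to 4408 genes in all with 1 library left out. Without AGS siHOXB9 the 3 were CD44, ALDH1A1 and BMI1, and ALDH1B1 differed by 0.99. CD44 and BMI1 were called under all 12 alternatives, though with no filter the limma adjusted p rose to 0.0434 for each. These counts include ALDH1A1 and ALDH1A3, whose difference between the lines is a description, and both were under the adjusted p threshold in some alternatives only. KLF4 was called without MKN1 siHOXB9 (-1.001). It too was under the adjusted p threshold in some alternatives only, and with no filter its limma adjusted p was 0.0511. With 1 library left out the siRNA term was dropped and the lone library was assumed to vary like the remaining pair. The cause was not tested. Without the siRNA as a replicate block, CD44, ALDH1B1 and BMI1 were still called and KLF4 stayed within 2-fold, while 5028 of the 13758 genes tested were called. The siRNA contrast has no replicates, and levels under 1 FPKM rest on few fragments.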
